A study of Mus musculus with 43 samples.

Results

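Transcript levels of 31 genes of cholesterol and fatty acid synthesis were followed in mouse lung after bleomycin injury and under nintedanib. The genes were taken by name: 15 enzymes of the sterol pathway, 4 regulators and carriers of sterols, and 12 enzymes that make, elongate, desaturate or place fatty acids. All 31 were found among the 21938 genes counted, and all 31 were among the 14836 genes tested. Messenger RNA was counted in the inferior lung lobe of 43 mice in 3 groups. The first group was control mice given vehicle (labelled CTRL Vehicle, n = 10, called control here). The second was bleomycin mice given the vehicle of nintedanib (BLEO-IPF Nintedanib Vehicle, n = 16, called vehicle), and the third was bleomycin mice given nintedanib (BLEO-IPF Nintedanib, n = 17, called nintedanib). Bleomycin, a DNA-cleaving drug, is given to rodents as a model of lung fibrosis, and nintedanib is a kinase inhibitor used to treat idiopathic pulmonary fibrosis. The labels used here give no strain, age, sex, dose, route or day, and do not say which vehicle the controls received, so that a difference in vehicle and the effect of bleomycin cannot be told apart.

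Cholesterol is built from acetyl-CoA through mevalonate, the isoprenoid units, squalene and lanosterol, and fatty acids are built from acetyl-CoA through malonyl-CoA by fatty acid synthase. Most enzymes of both routes are under the transcription factors SREBP2, which is known mainly for sterol genes, and SREBP1, which is known mainly for fatty acid genes. These factors are held in the endoplasmic reticulum by INSIG proteins when sterols are plentiful. In the lung the alveolar type 2 cell is the main site of lipid synthesis, because it makes the phospholipids of surfactant, and fat tissue attached to a lobe expresses the fatty acid enzymes strongly.

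Upstream sequence is shown for the 4 genes with the largest changes in any comparison among those whose promoter held a searched motif. Hmgcs1 is also shown, as the only 1 of the 24 members with a listed promoter that held TCACNCCAC, 1 form of the sterol regulatory element. Other forms of the element were not searched. The sequences are the 250 bases before the RefSeq start (build GRCm38.p6), written 5′ to 3′ on the strand of the gene. Capitals mark CCAAT, the box bound by NF-Y, in either orientation (ATTGG is the same box on the other strand), and the sterol regulatory element searched as TCACNCCAC on both strands. The 2 motifs do not overlap each other in these windows.
Mvd, chr8:122443423-122443672, minus strand: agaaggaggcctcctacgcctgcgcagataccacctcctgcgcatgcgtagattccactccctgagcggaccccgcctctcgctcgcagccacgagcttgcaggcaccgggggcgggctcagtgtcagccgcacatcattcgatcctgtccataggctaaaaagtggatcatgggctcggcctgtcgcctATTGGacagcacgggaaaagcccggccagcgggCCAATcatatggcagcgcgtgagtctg
Cyp51, chr5:4104698-4104947, minus strand: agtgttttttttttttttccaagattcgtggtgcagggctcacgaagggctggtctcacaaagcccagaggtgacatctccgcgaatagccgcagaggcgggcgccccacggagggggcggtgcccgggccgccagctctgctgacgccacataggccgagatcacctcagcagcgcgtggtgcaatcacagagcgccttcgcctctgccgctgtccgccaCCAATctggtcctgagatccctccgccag
Pmvk, chr3:89454291-89454540, plus strand, 1 of 2 listed starts: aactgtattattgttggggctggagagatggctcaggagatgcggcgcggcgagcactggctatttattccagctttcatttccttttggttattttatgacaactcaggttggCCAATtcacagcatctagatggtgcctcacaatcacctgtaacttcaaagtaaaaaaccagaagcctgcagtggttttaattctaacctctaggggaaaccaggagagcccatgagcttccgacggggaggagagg
Elovl1, chr4:118427843-118428092, plus strand, 1 of 2 listed starts: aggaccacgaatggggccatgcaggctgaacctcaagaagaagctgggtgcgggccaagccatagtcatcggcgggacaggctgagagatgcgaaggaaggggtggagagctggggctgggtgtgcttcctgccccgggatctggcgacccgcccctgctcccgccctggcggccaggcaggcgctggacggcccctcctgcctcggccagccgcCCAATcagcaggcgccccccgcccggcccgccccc
Hmgcs1, chr13:119690101-119690350, plus strand: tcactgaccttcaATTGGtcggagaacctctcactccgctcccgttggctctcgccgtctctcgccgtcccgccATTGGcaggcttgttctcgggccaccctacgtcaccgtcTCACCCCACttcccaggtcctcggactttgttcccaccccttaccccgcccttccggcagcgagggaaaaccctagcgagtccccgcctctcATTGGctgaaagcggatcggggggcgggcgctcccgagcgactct

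A promoter was listed for 24 of the 31 members. CCAAT lay in the 250 bases of 18 of these 24 genes, against 10133 of 27025 genes with a listed promoter (37.5%). It was in 11 of 12 sterol enzymes, 3 of 3 regulators and 4 of 9 fatty acid enzymes. Mvd held the box at -60 and at -27, Cyp51 at -29, Elovl1 at -35 and Pmvk at -136, counted back from the start. TCACNCCAC lay in 1 of the 24 members, Hmgcs1, at -137, and in 331 of all 27025 genes (1.22%). A match is a description of the letters and not a measured binding site.

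Library totals ran from 13138281 to 19111457 counts, and the values below are CPM, read counts scaled to the library size after TMM correction. The lobes were lung: the type 2 cell surfactant gene Sftpc lay between 8790 and 32200 CPM in every library. Fat transcripts differed between the groups. Adipoq, a secreted protein made by fat cells, was at 1 CPM or more in 8 of 10 control, 0 of 16 vehicle and 5 of 17 nintedanib libraries. The 9 fat markers, of which 7 were tested, summed to 48.1 to 2250 CPM in control, 31.3 to 53.9 in vehicle and 34.4 to 1020 in nintedanib libraries. Adipoq and the untested brown fat gene Ucp1 are part of this sum. Control replicate 1 stood apart from the other 9 controls. It held 120 CPM of Adipoq (at most 21.8 in the others) and 494 CPM of the brown fat gene Ucp1 (at most 1.24), and counts of fatty acid genes are also given without it. The 10 type 2 markers summed to 25400 to 34000 CPM in control, 15700 to 54500 in vehicle and 24300 to 54400 in nintedanib libraries. Vehicle replicate 4 had the lowest type 2 sum (15700 CPM, against at least 29200 in the other 15 vehicle libraries) and was the lowest vehicle library for 21 of the 31 genes. In such bulk libraries fewer cells of a type and less RNA per cell cannot be told apart.

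Per kilobase of exon the fatty acid enzymes, except Acaca at 6.12 CPM per kb and Elovl6 at 1.39, stood above every sterol enzyme. On this length-scaled level, taken as the middle of the 3 group medians, Scd1, the desaturase that makes oleate and palmitoleate, was first at 881 CPM per kb. It was followed by the very-long-chain elongase Elovl1 at 235, the second desaturase Scd2 at 217, Lpcat1, which builds the saturated phosphatidylcholine of surfactant, at 147, and fatty acid synthase, Fasn, at 107. The regulators Insig1, Srebf2 and Srebf1 lay at 40.5, 35.5 and 30.6. The highest sterol enzyme was Hmgcs1, which makes HMG-CoA, at 25.8, and the others ran down to 4.51 for the lanosterol synthase Lss and 0.816 for Fdps. The rank of Fdps, the farnesyl diphosphate synthase, is uncertain, because 1124 of its 4208 exon bases (26.7%) are shared with Gm43738, a gene model on the same strand that was listed at 0 CPM. In the middle of the order, neighbours such as Sc5d at 13.9 and Sqle at 13.8, or Srebf1 at 30.6 and the malic enzyme Me1 at 30.3, were closer than the spread between mice.

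The first comparison, vehicle against control, asked how the injured lung differed. Most sterol enzymes were higher in bleomycin lungs, led by Mvd, which makes isopentenyl diphosphate, and Cyp51, the lanosterol demethylase, while the factors that govern the pathway were not called. Among fatty acid enzymes the desaturase Scd1 and the elongase Elovl1 rose most. By edgeR's quasi-likelihood test with Benjamini-Hochberg adjustment over all genes (threshold 0.05), 17 members were higher, 3 were lower and 11 were not called. Over all 14836 genes 57.9% were called, 29.5% higher and 28.3% lower. The median log2 fold change was 0.26 over the members and -0.01 over all genes.

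**Figure D1:**
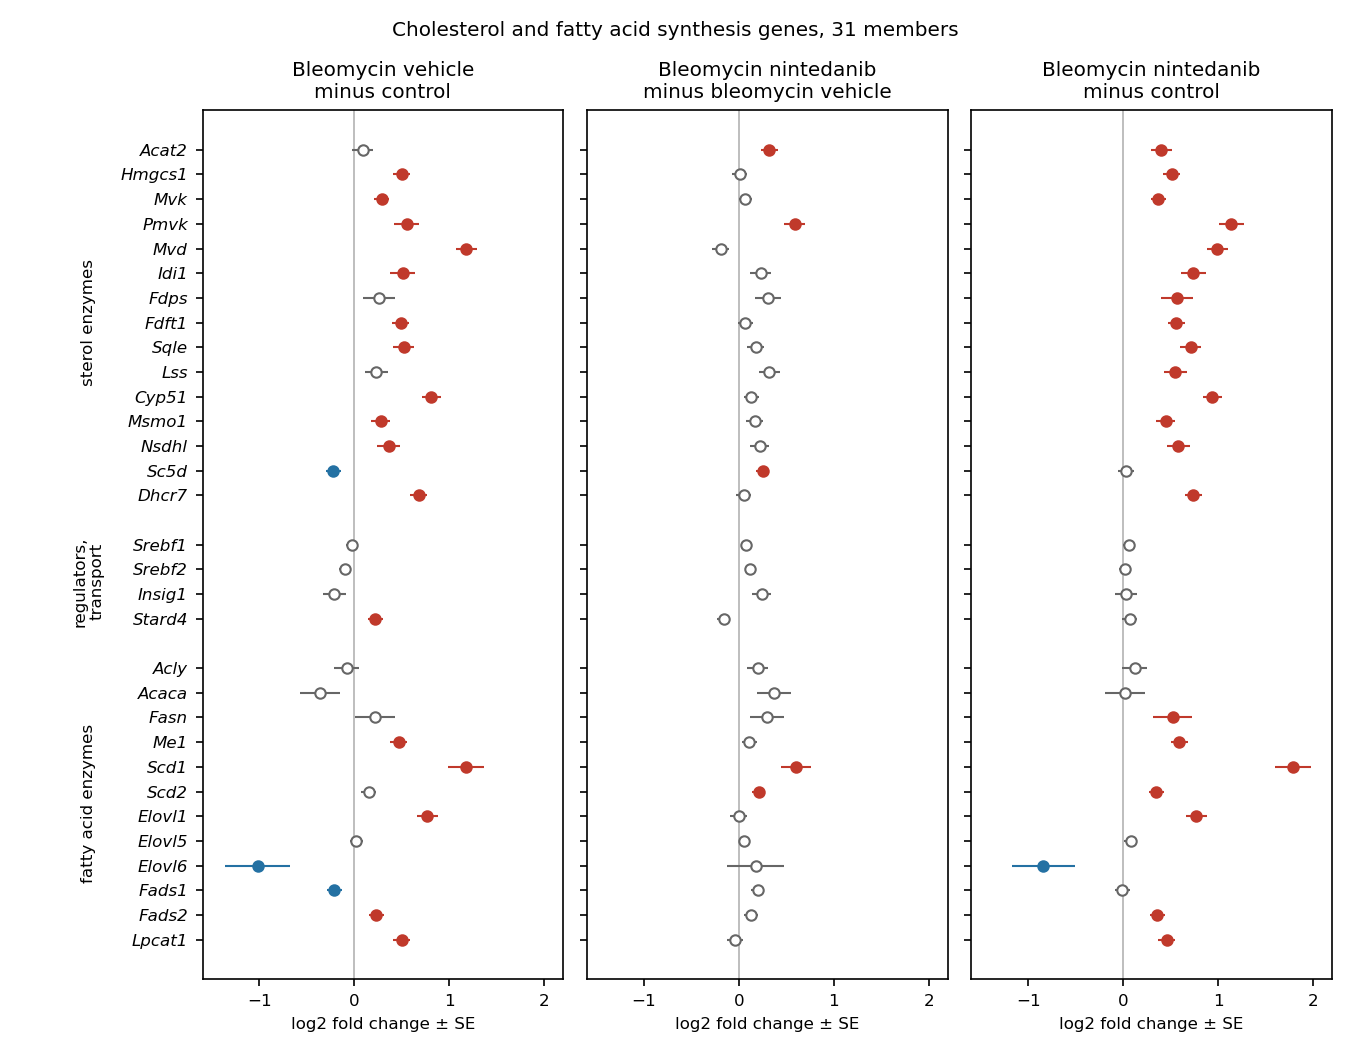
Log2 fold change (x axis, with standard error) of each of the 31 genes (y axis, by role) in the 3 comparisons. Filled points passed the adjusted p threshold of 0.05 (red higher, blue lower) and open points did not: 11 of 15 sterol enzymes are red in the left panel and 3 in the middle panel.

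Of the 15 sterol enzymes 11 rose, 1 fell and 3 were not called, with a median log2 fold change of 0.49. Mvd (chromosome 8, 122433601 to 122443422, GRCm38) had 17, 19.3 and 22.8 CPM as lowest, median and highest in control and 32.3, 43.7 and 67.6 in vehicle. All 16 vehicle mice lay above all 10 controls, and the log2 fold change was 1.18 ± 0.11 (SE, adjusted p = 6.9e-12), or 2.26-fold. The share of all genes whose groups lay apart in this way is not reported here, so the lack of overlap is a description only. Cyp51 (chromosome 5, 4081145 to 4104746) had 33.6, 39.6 and 48.4 CPM in control and 49.8, 70.8 and 106 in vehicle. Its groups did not overlap either, and the log2 fold change was 0.81 ± 0.10 (adjusted p = 7.7e-09). Dhcr7, the last reductase of the pathway (chromosome 7, 143823145 to 143848410), had 15.7, 18.2 and 21.9 CPM in control and 20.8, 29.6 and 36.9 in vehicle. Here the ranges overlapped narrowly, although each of the 16 vehicle mice exceeded the control median, and the log2 fold change was 0.68 ± 0.09 (adjusted p = 8.1e-08).

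The other sterol enzymes moved by less. Hmgcs1, at the entry to the pathway, had 68.6, 83.8 and 101 CPM in control and 68.1, 120 and 151 in vehicle. The log2 fold change was 0.50 ± 0.09 (adjusted p = 1e-05), and the ranges overlapped, with 15 of 16 vehicle mice higher than the control median. Sqle, the squalene epoxidase that is a slow step of the route, had 42.4, 52.4 and 65 CPM in control and 46.1, 76.5 and 108 in vehicle. It rose by 0.52 ± 0.11 (adjusted p = 6.1e-05), again with 15 of 16 mice above the control median. Early enzymes that also rose were the mevalonate kinase Mvk (0.29) and the phosphomevalonate kinase Pmvk (0.55), and the isomerase Idi1 rose by 0.51. The squalene synthase Fdft1 rose by 0.49, and the demethylation enzymes Msmo1 and Nsdhl by 0.28 and 0.36, the call of Msmo1 being lost without control replicate 2 or 4. Fdft1 shares 774 of its exon bases (18.3%) with the cathepsin gene Ctsb on the other strand, which was at a median of 1470 CPM and had a log2 fold change of 1.5, so its value is uncertain without the strand setting of the counting. Sc5d, the lathosterol desaturase, fell by 0.22 (adjusted p = 0.020), from a median of 67.7 to 61.2 CPM. Acat2, a thiolase, Fdps and Lss were not called, at 0.09, 0.26 and 0.23.

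Enzymes of the same route that were not among the 31 were read alongside. Of 7, 5 rose and 2 fell. Hsd17b7 rose by 0.63 ± 0.11 (adjusted p = 7.9e-06) and Tm7sf2 by 0.43. Lbr, which has the same sterol reductase activity as Tm7sf2 and is also a nuclear envelope protein, fell by 0.41.

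The regulators were mostly not called. Srebf1 had 153, 173 and 193 CPM in control and 124, 169 and 196 in vehicle, with a log2 fold change of -0.03 ± 0.06 (adjusted p = 0.72). Srebf2 had 239, 255 and 281 CPM in control and 171, 246 and 275 in vehicle, with -0.10 ± 0.06 (adjusted p = 0.14). For both genes the ranges overlapped over most of their width, and 11 of 16 vehicle mice were under the median of the controls. Insig1, which retains the SREBP factors and is itself a target of them, had 93.7, 125 and 159 CPM in control and 60, 113 and 160 in vehicle, with -0.21 ± 0.12 (adjusted p = 0.12). Of the 4 genes in this group only the sterol carrier Stard4 was called, with a rise of 0.22 (adjusted p = 0.016). The call of Stard4 was lost without control replicate 2, 4 or 7. With library totals in place of TMM factors 2 of the 4 were called lower, in a fit where 32.9% of all genes were called lower (28.3% with TMM factors). Srebf2 was called lower without control replicate 2, 5 or 7 or nintedanib replicate 12 or 14, and Insig1 without control replicate 8 or vehicle replicate 5 or 10.

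Of 9 further genes of SREBP processing and sterol uptake 4 rose and the other 5 were not called. Among those that rose were Lipa, the lysosomal acid lipase (1.48), and the lysosomal cholesterol exporters Npc2 (1.2) and Npc1 (0.65). Of 8 genes of sterol efflux, storage and oxysterols 5 rose and 2 fell. Apoe rose by 1.35, the exporter Abcg1 by 1.16, the 25-hydroxylase Ch25h by 1.16 and the exporter Abca1 by 0.55. In the same libraries all 6 markers of profibrotic macrophages rose, with summed levels of 420 to 502 CPM in control and 1360 to 4390 in vehicle, and the part of macrophages in these sterol genes was not tested.

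**Figure D2:**
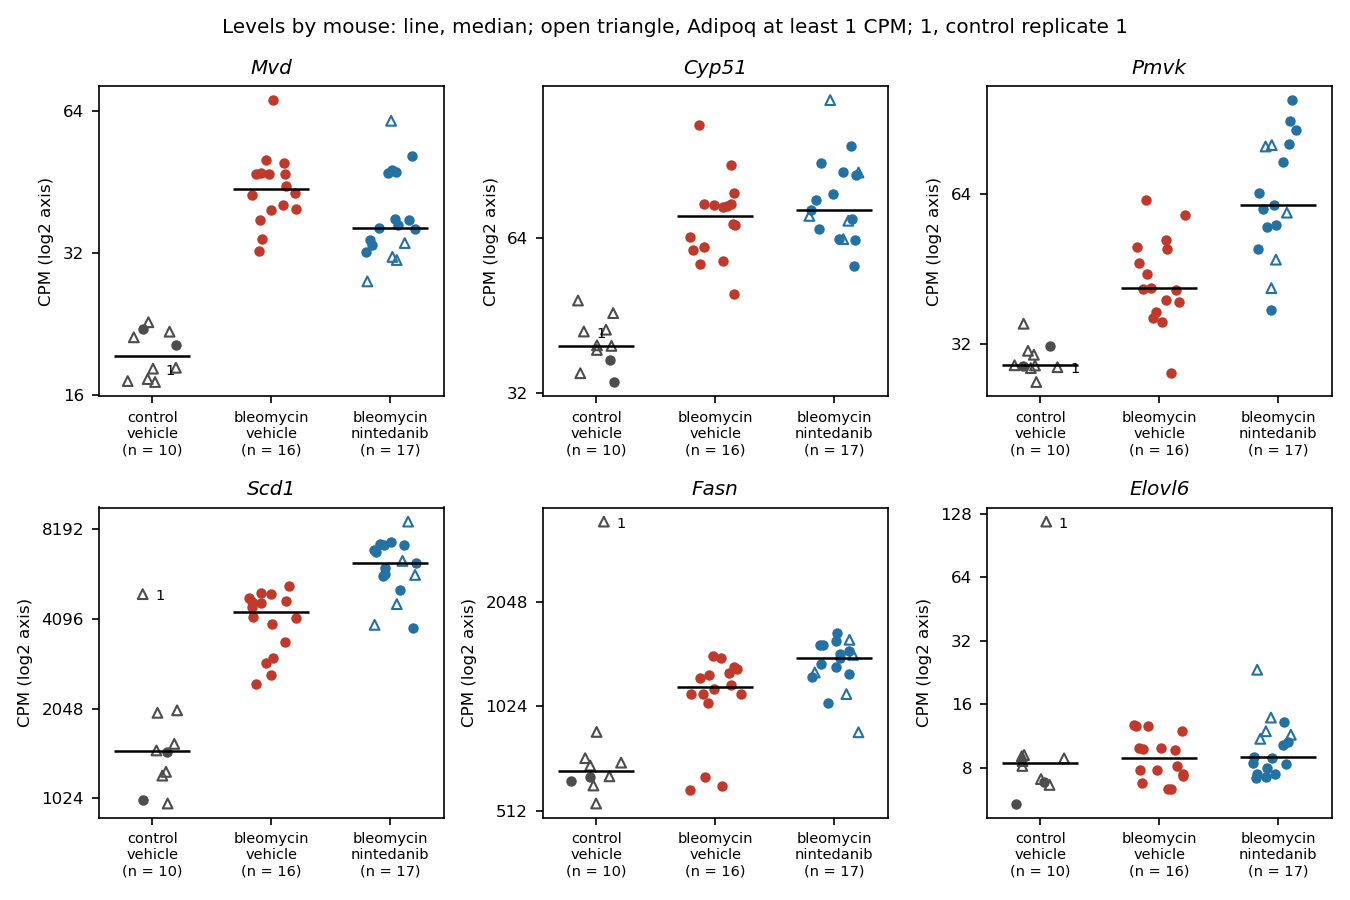
CPM of 6 genes (y axes, log2 scaled) in each mouse by group, with the group median as a line and libraries with at least 1 CPM of Adipoq as open triangles. For Mvd and Cyp51 all controls lie below all vehicle mice, and control replicate 1 (marked 1) is the highest control for Scd1, Fasn and Elovl6.

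Of the 12 fatty acid enzymes 5 rose, 2 fell and 5 were not called, with a median log2 fold change of 0.18. Scd1 (chromosome 19, 44394455 to 44407879) had 984, 1480 and 4960 CPM in control and 2470, 4310 and 5270 in vehicle. The highest control was replicate 1, and the other 9 reached 2020 CPM at most, below every vehicle mouse. The log2 fold change was 1.18 ± 0.19 (adjusted p = 1e-06), and 1.5 ± 0.15 (adjusted p = 6e-11) without control replicate 1. Elovl1 (chromosome 4, 118428093 to 118432953) had 293, 375 and 453 CPM in control and 292, 641 and 860 in vehicle. It rose by 0.77 ± 0.11 (adjusted p = 2.1e-07), with 15 of 16 vehicle mice over the median of the controls. Lpcat1 rose by 0.50, Me1, a source of NADPH, by 0.47 and the fatty acid desaturase Fads2 by 0.23, while its neighbour Fads1 fell by 0.21 (adjusted p = 0.020). Scd2, which lies next to Scd1 on chromosome 19, was not called (0.15, adjusted p = 0.098) except without vehicle replicate 4, and neither was Elovl5 (0.02). Scd1 and Scd2 are close paralogs, and how reads that match both were counted is not given in the sources used here, so the split between them is uncertain.

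The values of the central enzymes turned on control replicate 1. Elovl6, the elongase of palmitate, had 5.42, 8.39 and 117 CPM in control and 6.34, 8.94 and 12.8 in vehicle, so the control median was the lower one. Its log2 fold change was -1.02 ± 0.34 (adjusted p = 0.0096), but 0.25 ± 0.16 (adjusted p = 0.19) without that library, in which Elovl6 was 14.4 times the median of the other 9 controls. Fasn had 537, 667 and 3480 CPM in control and 590, 1170 and 1430 in vehicle. It was not called with all libraries (0.22 ± 0.21, adjusted p = 0.36) and was higher without control replicate 1 (0.73 ± 0.13, adjusted p = 5.8e-06). The 13 vehicle mice above the control median of Fasn were joined by 3 below it, replicates 3, 4 and 10 with 590, 640 and 603 CPM. Acly, which supplies cytosolic acetyl-CoA, and Acaca, which makes malonyl-CoA, were not called in either fit. They stood at -0.08 and -0.36 with all libraries and at 0.11 and 0.18 without control replicate 1. Without control replicate 1 the members counted 18 higher and 2 lower, with sterol enzymes at 11 and 1 as before and fatty acid enzymes at 6 and 1. Over all 14886 genes tested in that fit 4440 were higher and 4136 lower.

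**Figure D3:**
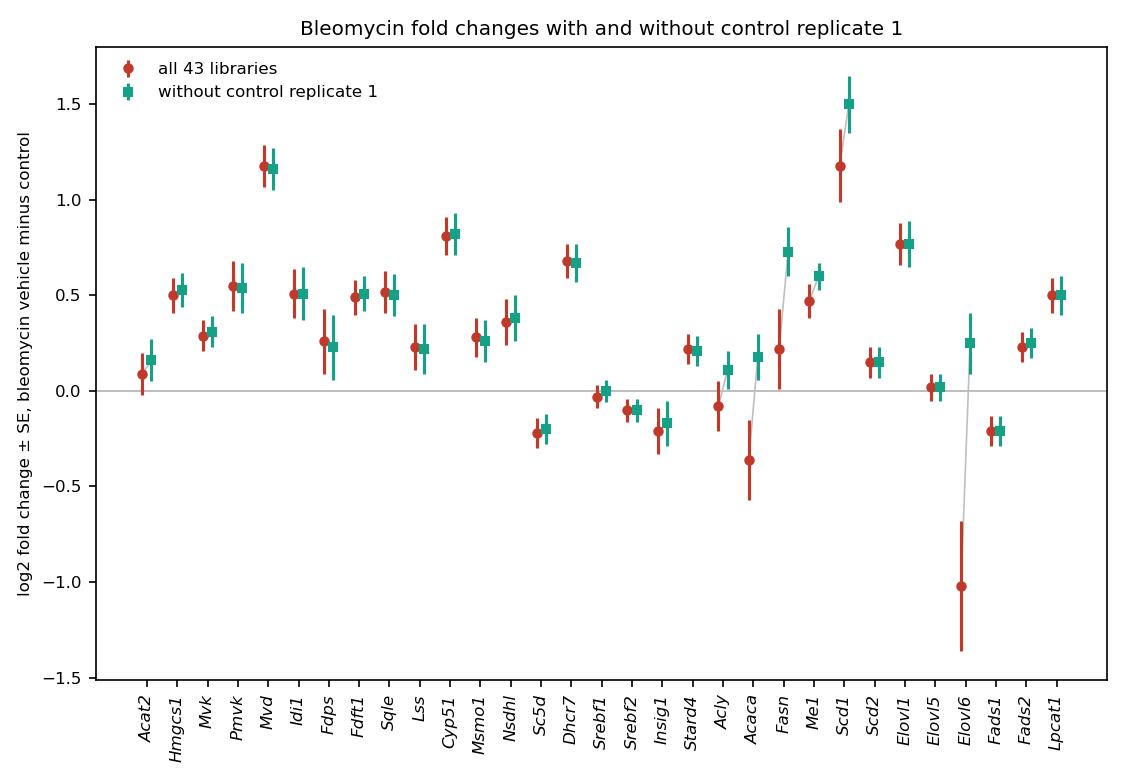
Log2 fold change of vehicle against control (y axis, with standard error) for the 31 genes (x axis) with all 43 libraries (circles) and without control replicate 1 (squares). The sterol enzymes keep their place, whereas Elovl6 goes from -1.02 to 0.25 and Fasn from 0.22 to 0.73.

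Beyond these enzymes, 17 of 18 genes of fatty acid and glycerolipid synthesis were tested, and 2 rose and 6 fell. The largest falls were those of Thrsp (4.43 on the log2 scale), a lipogenic nuclear protein, Dgat2 (2.23), which makes triglyceride, Mlxipl (2.05), the carbohydrate response factor, and Acacb (1.10). Control replicate 1 carried 311 CPM of Thrsp and 298 of Dgat2, against at most 19.4 and 34.9 in the other controls. Without it these 4 genes were still lower, with log2 fold changes of -2.31, -1.15, -1.36 and -0.50. Over the whole list the count without that library was 5 higher and 6 lower, and without all 13 Adipoq-holding libraries 4 higher and 1 lower. Of 10 genes of fatty acid oxidation 1 rose and 6 fell with all libraries, among them Ppara (-1.54), Acadm (-0.70), Ppargc1a (-0.70) and Hadhb (-0.48). The count was 3 higher and 3 lower without control replicate 1, and 3 higher with no gene lower without the Adipoq-holding libraries, a fit with 2 controls in which 13.4% of all genes were called higher and 10.5% lower. All 7 tested fat markers were lower in vehicle than in control, and the part of fat in the values of both lists was not tested.

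Of the 10 type 2 cell markers 5 rose in vehicle against control and 0 fell, with a median log2 fold change of 0.31. With the mean level of these 10 markers as a covariate, 11 members were higher and 7 lower, and the median over the members was 0.06. Mvd (1.13), Cyp51 (0.69), Scd1 (0.92), Dhcr7 (0.48) and Elovl1 (0.40) stayed called, while Mvk (0.12), Idi1 (0.20), Msmo1 (0.06) and Nsdhl (0.10) lost their calls. The sterol enzymes then counted 7 higher and 1 lower with a median of 0.20, and 3 of the 4 regulators, Srebf1, Srebf2 and Insig1, were called lower, with -0.49 (adjusted p = 0.00015) for Insig1. Without the 13 libraries that held Adipoq, which left 2 controls, 10 members were higher and 0 lower. Within the 33 libraries of the largest number series in the library names, whose meaning the labels do not give, 14 were higher and 3 lower. The shares over all genes in the type 2 covariate fit and in that number series are not reported here. Their member counts are therefore not read as a result about the members.

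**Figure D4:**
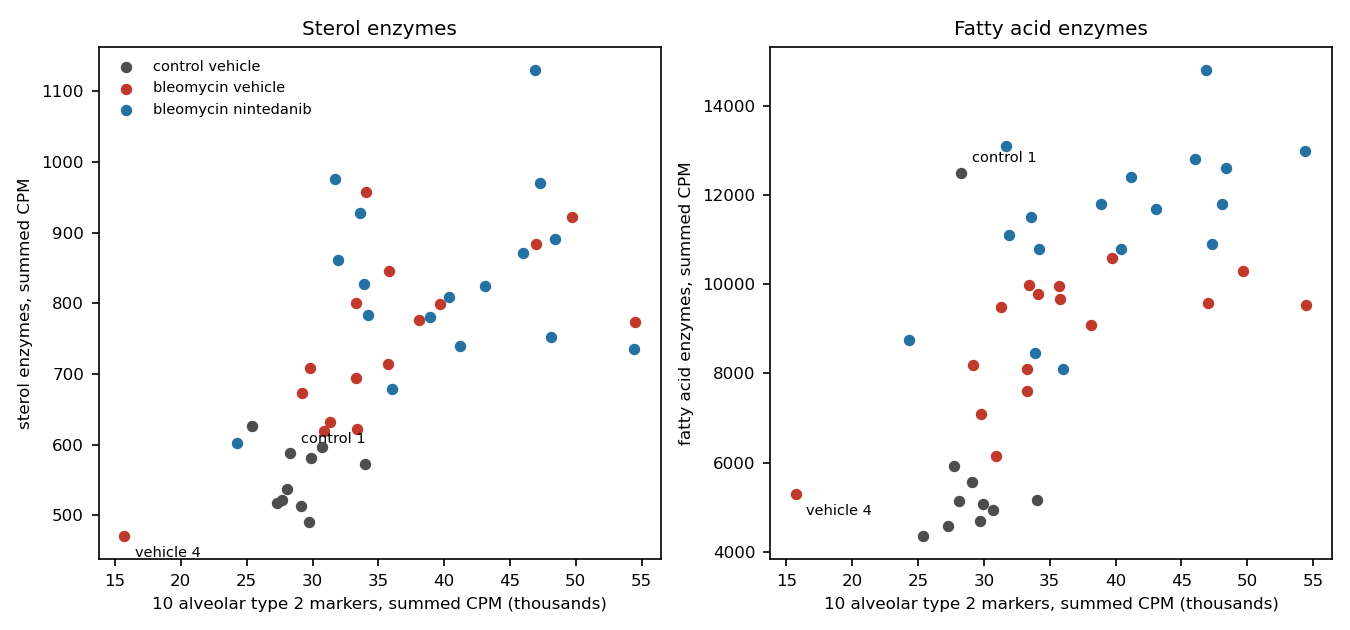
Summed CPM of the 15 sterol enzymes (left) and the 12 fatty acid enzymes (right) on the y axes against the summed CPM of 10 type 2 cell markers (x axis), with 1 point for each mouse. Control replicate 1 is the highest control for the fatty acid enzymes, at 12500 CPM, and vehicle replicate 4 is the lowest vehicle mouse on every axis.

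Among bleomycin mice, those given nintedanib were next compared with those given its vehicle, to ask whether treatment moved these genes. Nintedanib lungs were higher in Scd1 and Pmvk by about the same factor and in Acat2, Sc5d and Scd2 by less, and no member was lower. In all 5 members were called, 3 of 15 sterol enzymes, 0 of 4 regulators and 2 of 12 fatty acid enzymes, where 7.31% of all 14836 genes were called, 3.21% higher and 4.10% lower (476 and 608 genes, and 369 and 813 with library totals). The log2 fold change was above 0 in 27 of 31 members, with a median of 0.18. DESeq2 called 8 members higher, 4 sterol and 4 fatty acid enzymes, and its share over all genes is not reported here. In the edgeR test 9 of 15 sterol enzymes (8 higher, 1 lower) and 4 of 12 fatty acid enzymes (all higher) were under an unadjusted p of 0.05. Of the 4 regulators 3 were under it (2 higher, 1 lower), and DESeq2 called 0 of them. The share of all genes under it is not reported here. Lss (0.32) and Fads1 (0.20) each had an adjusted p of 0.055, and gained a call without 1 library in 8 and 9 of 43 cases. Around the members, the edgeR test called 0 of 7 further sterol enzymes, 0 of 8 efflux and storage genes, 0 of 17 further lipid synthesis genes and 0 of 10 oxidation genes. In that order 2, 0, 4 and 1 genes were under an unadjusted p of 0.05, and DESeq2 called 0, 0, 0 and 1. Without control replicate 1 the members counted 6 higher, with Acaca (0.37, adjusted p = 0.016) as the added one. Over all 14886 genes tested in that fit 489 were higher and 604 lower. In that fit 3 of the 17 further lipid synthesis genes and 1 of the 10 oxidation genes were also called higher. They were the acetyl-CoA synthetase Acss2 (0.36, adjusted p = 0.036, against 0.068 with all libraries), Hacd2 (0.18, adjusted p = 0.024), Thrsp (1.59, adjusted p = 0.038) and Ppara (0.54, adjusted p = 0.030).

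Scd1 had 2470, 4310 and 5270 CPM in vehicle and 3820, 6300 and 8680 in nintedanib mice. The ranges overlapped, 15 of 17 nintedanib mice lay above the vehicle median, and the log2 fold change was 0.60 ± 0.16 (adjusted p = 0.015), or 1.52-fold. Pmvk (chromosome 3, 89454541 to 89469013) had 27.9, 41.4 and 62.2 CPM in vehicle and 37.5, 60.9 and 98.7 in nintedanib. Again 15 of 17 lay above the vehicle median, with a log2 fold change of 0.59 ± 0.11 (adjusted p = 0.00070). Both calls held without any 1 of the 43 libraries and with the type 2 markers as a covariate (0.51, adjusted p = 0.039, for Scd1 and 0.51, adjusted p = 0.0023, for Pmvk). The other calls lay closer to the threshold. Acat2 had 21.6, 36.4 and 48.4 CPM in vehicle and 29.1, 42.3 and 61.4 in nintedanib mice (0.32 ± 0.09, adjusted p = 0.033). Sc5d, the enzyme that was lower in vehicle than in control, had 40.4, 61.2 and 73.4 CPM in vehicle and 55.6, 68.5 and 89 in nintedanib mice (0.25 ± 0.07, adjusted p = 0.027), and 16 of 17 lay above the vehicle median. Scd2 had 663, 1190 and 1450 CPM in vehicle and 1100, 1330 and 1570 in nintedanib mice (0.21 ± 0.07, adjusted p = 0.044). In all 3 the ranges overlapped. Acat2 lost its call without 1 library in 9 of 43 cases, Sc5d in 2 (nintedanib replicate 1 and vehicle replicate 8) and Scd2 in 16, and all 3 lost it with the type 2 markers as a covariate. The count of members higher fell to 2 without vehicle replicate 8 and to 3 without any 1 of vehicle replicates 3, 4 and 6 or nintedanib replicates 1, 2, 3, 5 and 9.

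The other genes followed in every comparison were not called. Hmgcs1 had a median of 119 CPM (88.5 to 157) in nintedanib mice against 120 in vehicle, with a log2 fold change of 0.01 ± 0.08 (adjusted p = 0.94). Sqle had 63.1, 86.8 and 115 CPM in nintedanib mice, with 0.18 ± 0.09 (adjusted p = 0.20). The regulators overlapped as widely. Insig1 had 71.1, 127 and 159 CPM in nintedanib mice, with 0.24 ± 0.10 (adjusted p = 0.13). Srebf1 had 140, 179 and 207 CPM (0.08 ± 0.05, adjusted p = 0.29) and Srebf2 211, 267 and 294 (0.12 ± 0.05, adjusted p = 0.14). Of the related SREBP genes Insig2, the second retention protein, rose by 0.12 (adjusted p = 0.027). No gene of that list was called with library totals, 2 groups only, the largest number series, either covariate or without the Adipoq-holding libraries. Fasn had 862, 1410 and 1670 CPM in nintedanib mice, none of them as low as the 3 low vehicle mice, with 0.30 ± 0.18 (adjusted p = 0.30). Elovl6 had 7.13, 8.99 and 23.3 CPM (0.18 ± 0.30, adjusted p = 0.76), and its 5 Adipoq-holding nintedanib libraries had a median of 11.9 against 8.39 in the other 12. Mvd, which had changed most with bleomycin among the sterol enzymes, stood at -0.19 ± 0.09 (adjusted p = 0.19), with 12 of 17 nintedanib mice below the vehicle median. Of the 10 type 2 markers 0 were called by edgeR and 2 were under an unadjusted p of 0.05, with a median of 0.13, while 5 of 7 fat markers were higher. Of these 5, Plin1 and Cfd each had only 6 of 17 nintedanib mice above the vehicle median, Adipoq 10, Car3 12 and Retn 13. Adipoq was under 1 CPM in 12 of the 17.

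The third comparison, nintedanib against control, shares the controls with the first and the treated mice with the second. In nintedanib lungs 21 members were higher and 1 lower than in control, and 53.2% of all genes were called, 28.1% higher and 25.1% lower (4171 and 3717 genes, and 3250 and 4844 with library totals). Of the 15 sterol enzymes 14 rose, with a median of 0.57, and the exception was Sc5d (0.03). Among fatty acid enzymes 7 rose and 1 fell, and of the 4 regulators 0 were called by edgeR or DESeq2 and 0 were under an unadjusted p of 0.05. With library totals the fatty acid enzymes counted 6 higher and 1 lower.

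Scd1 led with 1.79 ± 0.19 (adjusted p = 3.2e-10), 3.45-fold, and with 2.10 ± 0.15 (adjusted p = 2.8e-14) without control replicate 1. Pmvk followed with 1.14 ± 0.13 (adjusted p = 7.5e-10), from 26.8, 29 and 35.1 CPM in control, and all 17 nintedanib mice lay above all controls. Mvd had 27.8, 36.2 and 61.1 CPM in nintedanib mice (0.99 ± 0.11, adjusted p = 4.1e-10) and Cyp51 56.5, 72.6 and 118 (0.94 ± 0.10, adjusted p = 2.9e-10). These 2 genes did not overlap with control either, and the share of all genes without overlap is not reported here. Elovl1 had 440, 640 and 872 CPM and a log2 fold change of 0.77 ± 0.11 (adjusted p = 2.2e-07). Hmgcs1 stood at 0.51 ± 0.09 (adjusted p = 6.9e-06) and Sqle at 0.71 ± 0.11 (adjusted p = 5e-07), each with 17 of 17 mice above the control median. Insig1, Srebf1 and Srebf2 had medians within the control range and log2 fold changes of 0.03 ± 0.12, 0.06 ± 0.06 and 0.02 ± 0.06 (adjusted p = 0.85, 0.39 and 0.79).

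For Fasn, Elovl6, Acly and Acaca the third comparison also turned on control replicate 1. Fasn stood at 0.52 ± 0.21 (adjusted p = 0.033) and at 1.02 ± 0.13 (adjusted p = 1.2e-08) without it, and its call was lost without 1 library in 9 of 43 cases. Elovl6 stood at -0.84 ± 0.33 (adjusted p = 0.032) and at 0.43 ± 0.16 (adjusted p = 0.023) without that library. In that fit Acly (0.31) and Acaca (0.55) were called as higher, and the members counted 24 higher and 0 lower, with 10 of 12 fatty acid enzymes higher. Over all 14886 genes tested there 4221 were higher and 3647 lower. Of the 10 type 2 markers 9 rose, and with them as a covariate 12 members were higher and 2 lower. The share over all genes in that covariate fit is not reported here, so this count is not read as a result about the members. Hsd17b7 (0.77) and Tm7sf2 (0.61) rose among the further sterol enzymes, which counted 5 higher and 2 lower. Of the 9 processing and uptake genes 6 rose and 1 fell, of the 8 efflux and storage genes 5 rose and 3 fell, of the 17 further lipid synthesis genes 5 rose and 5 fell, and of the 10 oxidation genes 1 rose and 5 fell. Without control replicate 1 the further lipid synthesis genes counted 6 higher and 2 lower and the oxidation genes 3 higher and 2 lower. The largest values of the 4 lists were 1.39 for Lipa, 1.5 for Apoe, -2.83 for Thrsp and -1.0 for Ppara. Without that library Thrsp (-0.72, adjusted p = 0.25), Ppara (-0.23, adjusted p = 0.28), Acacb (-0.22, adjusted p = 0.15) and Acss2 (-0.19, adjusted p = 0.20) were no longer called.

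Spread between mice differed by group and gene. In control mice Fads1 ran from 155 to 171 CPM and Srebf2 from 239 to 281, while Elovl6 spanned 21.6-fold, with control replicate 1 at the top. In vehicle mice the highest value was 1.58 times the lowest for Srebf1 and 3.49 times for Fdps, and in nintedanib mice 1.39 times for Srebf2 and 3.27 times for Elovl6. Single mice ran low or high across the set. Nintedanib replicate 8 was the lowest of its group for 14 of the 31 genes and also had the lowest type 2 sum there (24300 CPM). Nintedanib replicate 5 was the highest for 16, with 1130 CPM of sterol enzymes against at most 976 in the others, and its type 2 sum of 46900 CPM lay inside their range. It and vehicle replicate 4 also held more of the 8 resident alveolar macrophage markers than any other mouse of their groups, with 3480 against at most 2080 CPM and 3350 against at most 1970 CPM, and the part of these cells in the lipid genes was not tested.

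Pairs of genes were then compared across mice within each group, as log2 CPM, in 21 relations of 7 pairs with p-values adjusted over all 21. The 1 pair of sterol enzymes examined, Hmgcs1 and Sqle, varied together in both bleomycin groups. Hmgcs1 and Sqle had r = 0.83 (adjusted permutation p = 0.00042, rho = 0.84, adjusted p = 0.0013) in vehicle mice, and 0.70 without the 2 mice farthest on Hmgcs1. In nintedanib mice r was 0.78 (adjusted permutation p = 0.0018, rho = 0.77, adjusted p = 0.0054) and 0.77 without the farthest 2, and in control mice 0.19 (adjusted permutation p = 0.67, rho = 0.05, adjusted p = 0.94). Whether r differed between groups was not tested. Hmgcs1 and Insig1 had r = 0.73 in vehicle and 0.70 in nintedanib mice (adjusted permutation p = 0.0036 for each, rho = 0.54 and 0.72, adjusted p = 0.086 and 0.0082). Without the 2 farthest mice these were 0.61 and 0.57, and over the 12 nintedanib mice without Adipoq r was 0.37.

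The 1 pair of a sterol and a fatty acid enzyme examined, Hmgcs1 and Fasn, had r = 0.45, 0.35 and 0.32 in control, vehicle and nintedanib mice (adjusted permutation p = 0.31, 0.27 and 0.30, rho = 0.18, 0.01 and 0.25). The sign turned to -0.24 without control replicate 1 and to -0.28 within the 13 vehicle mice above 1000 CPM of Fasn. Fasn and Scd1 had r = 0.93 over all 10 controls (adjusted permutation p = 0.0027, rho = 0.87, adjusted p = 0.01) and 0.79 over the 9 without replicate 1. Over all 16 vehicle mice r was 0.83 (adjusted permutation p = 0.002, rho = 0.75, adjusted p = 0.0082), and 0.79 without the 2 mice farthest on Fasn. It was 0.53 over those 13 vehicle mice, a choice by Fasn itself that narrows its range. Over 17 nintedanib mice r was 0.60 (adjusted permutation p = 0.025, rho = 0.52, adjusted p = 0.086), and 0.21 over the 12 of them without Adipoq. Fasn and Abca3, the lipid transporter of surfactant bodies, had r = 0.64 in nintedanib mice (adjusted permutation p = 0.020, rho = 0.42, adjusted p = 0.17) and 0.30 over the 12 of them without Adipoq. Over all 16 vehicle mice r was 0.84 (adjusted permutation p = 0.0036, rho = 0.36, adjusted p = 0.25), but -0.12 over the 13 mice. Over all 10 controls r was 0.14, and 0.83 over the 9. Fasn and Elovl6 had r = 0.95 in control mice with rho = 0.16, which rested on control replicate 1, and 0.08 and 0.03 in the other groups. Scd1 and Scd2 had r = 0.60 in vehicle mice (adjusted permutation p = 0.023, rho = 0.44, adjusted p = 0.17), 0.16 without the farthest 2, 0.47 in nintedanib and -0.38 in control mice.

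**Figure D5:**
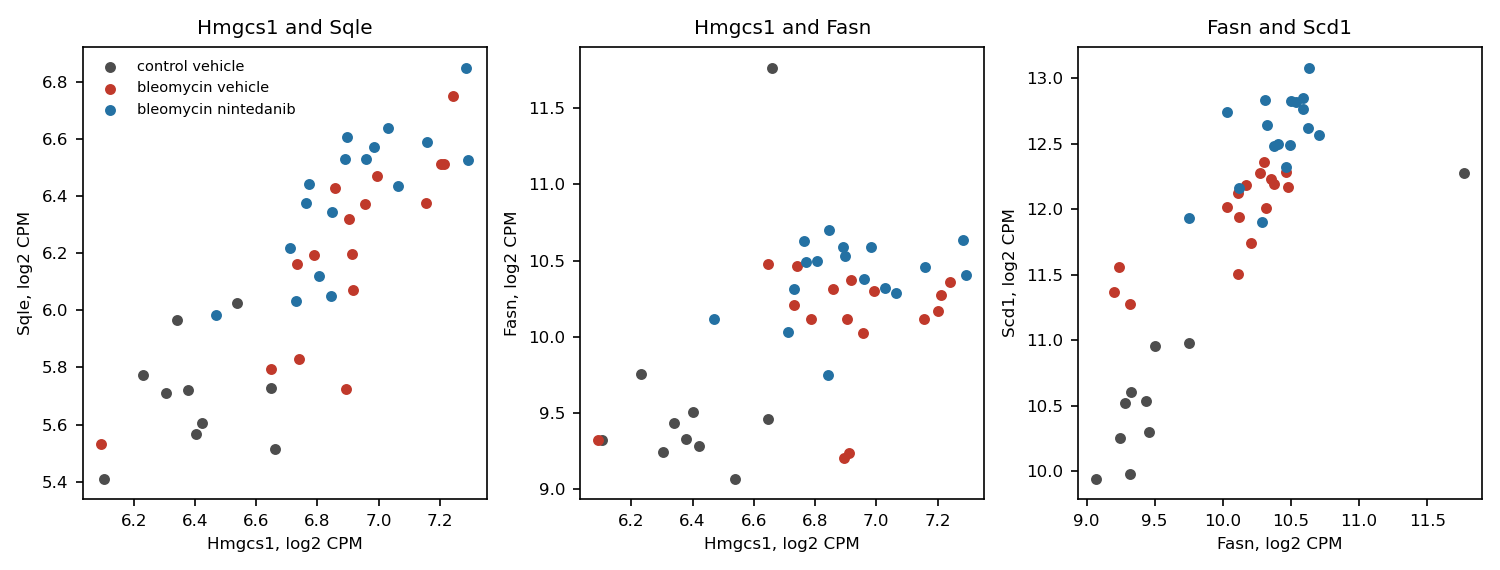
Log2 CPM of 3 pairs of genes in each mouse, coloured by group. Hmgcs1 and Sqle rise together in both bleomycin groups (r = 0.83 and 0.78), Hmgcs1 and Fasn have r = 0.35 and 0.32 there, and 1 control, replicate 1, and 3 vehicle mice lie apart on Fasn.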

How the data were processed

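Polyadenylated RNA of the inferior lung lobe was sequenced from 43 mice with a directional kit, per the labels' protocols. The deposited table holds raw read counts of 21938 genes made by the authors, and the submitters' processing notes name STAR 2.7.0f, R 3.6.0 and GRCm38; for the counting tool and its strand setting the sources used here give nothing. Counts were analysed as deposited with edgeR 4.0.16 in R 4.3.3 (limma 3.58.1), by quasi-likelihood tests with TMM factors, all 43 libraries, 1 coefficient for each group and genes kept by filterByExpr (minimum count 10, minimum total 15). P-values were adjusted by Benjamini-Hochberg over 14836 genes, with 0.05 as threshold. They set a difference between groups against a spread between mice that was estimated over all 3 groups together. Log2 CPM used a prior count of 2. Correlations used 100000 permutations in Python 3.11.15 (SciPy 1.17.1).

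Totals were 13138281 to 17812995 counts in control, 13175246 to 19111457 in vehicle and 13324549 to 18723538 in nintedanib libraries. In 301 pairs of the same group the counts differed beyond sampling noise (chi-square per degree of freedom at least 5.22). The test was checked on simulated counts, where 80.3%, 90.9% and 73.8% of genes changed 1.5-fold were recovered in vehicle against control, nintedanib against vehicle and nintedanib against control. Of genes changed 1.25-fold 44.6%, 54.2% and 47.6% were recovered, and 6.45%, 3.68% and 2.72% of the calls were false. Only 200 of 14836 genes were changed there, fewer than were called in the data, so recovery in the data may differ. Alternatives were RLE factors, library totals, no filter, DESeq2 1.42.0, fits of 2 groups, 1 number series of the library names, covariates and each library left out. Gene symbols, coordinates and exon lengths are from GENCODE M21 (GRCm38) and promoters from RefSeq (GRCm38.p6). The members and gene lists were chosen with earlier results of these data known. Named in full were the 6 called members with the largest change in each comparison and Hmgcs1, Sqle, Insig1, Srebf1, Srebf2, Fasn, Scd1 and Elovl6. Some genes of the wider lists are counted there but not reported here by name.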

Additional observations from a re-analysis of the deposited data

Results flagged for a closer look

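In 9 of the 31 genes the highest or lowest control mouse lay far from the other 9, measured as the gap to its neighbour over the range of the group on the log2 CPM scale. Chance alone flags about 1 in 20 groups. In 6 of the 9 it was control replicate 1, the library with 494 CPM of Ucp1 and 120 CPM of Adipoq. Its log2 CPM was 11.77 for Fasn (next control 9.76), 12.28 for Scd1 (10.98), 8.99 for Acaca (6.89), 9.70 for Acly (8.65), 7.21 for Me1 (6.48) and 6.87 for Elovl6 (3.22). The part of attached fat in these values was not tested. The others were Lss at 4.93 in control replicate 8 (next 5.28), Stard4 at 6.08 in control replicate 5 (next 5.84) and Elovl5 at 8.45 in control replicate 2 (next 8.14). Groups of more than 10 mice were not examined in this way.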

How the results depend on the processing

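The cause of each difference below was not tested. Members called in vehicle against control went from 17 higher and 3 lower to 10 and 0 without the 13 Adipoq-holding libraries (2 controls left), 11 and 7 with the type 2 covariate, 0 lower with an Adipoq covariate and 5 lower with library totals. Over all genes the calls were 2050 higher and 1604 lower without those libraries, 2566 lower with the Adipoq covariate and 4882 lower with library totals. In nintedanib against vehicle the 5 members higher became 8 with DESeq2, 3 with 2 groups only, 3 with the Adipoq covariate and 2 with the type 2 covariate, which called 1 lower. Over all genes that comparison gave 254 higher and 386 lower with 2 groups only, 248 and 277 without Adipoq libraries, 305 and 315 with the Adipoq covariate and 347 lower with the type 2 covariate. In nintedanib against control the 1 member lower became 0 with DESeq2, 2 groups only, series A, no Adipoq libraries or the Adipoq covariate and 2 with the type 2 covariate, which called 12 higher. Over all genes it gave 1800 higher and 1497 lower without Adipoq libraries. RLE factors and no filter moved no such count by over 1.5 times.

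Leaving out each of the 43 libraries gave 15 to 18 members higher and 2 to 4 lower in vehicle against control (3832 to 4440 and 4033 to 4982 genes). It gave 2 to 7 and 0 to 1 in nintedanib against vehicle (295 to 691 and 401 to 913 genes), with the 1 lower without vehicle replicate 4. It gave 20 to 24 and 0 to 1 in nintedanib against control (3532 to 4221 and 3562 to 4590 genes).

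Signs turned mostly for log2 fold changes near 0. In vehicle against control these were Acat2 -0.01 and Elovl5 -0.03 in series A; Elovl5 -0.03 with library totals; Acat2 -0.18, Lss -0.10, Scd2 -0.00028 and Elovl5 -0.13 with the type 2 covariate; Srebf1 0.01, Acly 0.10, Acaca 0.23, Elovl5 -0.16 and Elovl6 0.59 without Adipoq libraries. They were Acly 0.09, Acaca 0.24, Elovl5 -0.11 and Elovl6 0.73 with the Adipoq covariate, and Acaca 0.14 and Elovl6 0.22 with DESeq2. In nintedanib against vehicle they were Hmgcs1 -0.01 with library totals, Hmgcs1 -0.04 and Dhcr7 -0.02 with the type 2 covariate, Elovl1 0.05 in series A, Elovl1 0.03, Elovl6 -0.06 and Lpcat1 0.03 without Adipoq libraries, and Elovl1 0.01, Elovl6 -0.29 and Lpcat1 0.01 with the Adipoq covariate. In nintedanib against control they were Sc5d -0.04, Srebf1 -0.01, Srebf2 -0.05, Insig1 -0.04, Stard4 -0.0026 and Acaca -0.05 with library totals. With 2 groups only they were Sc5d -0.01, Srebf2 -0.01, Insig1 -0.0043 and Acaca -0.02, and in series A Insig1 -0.01 and Acaca -0.03. Without Adipoq libraries they were Sc5d -0.03, Stard4 -0.02, Elovl5 -0.06, Elovl6 0.53 and Fads1 0.03. With the Adipoq covariate they were Stard4 -0.05, Elovl5 -0.0014, Elovl6 0.45 and Fads1 0.02, and with DESeq2 Elovl6 0.40. With the type 2 covariate they were Sc5d -0.17, Srebf1 -0.10, Srebf2 -0.14, Insig1 -0.34, Stard4 -0.16, Acly -0.20, Acaca -0.31 and Elovl5 -0.12.

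Without 1 library, signs turned within -0.15 to 0.11 for Acly, -0.45 to 0.18 for Acaca, -0.03 to 0.03 for Elovl5 and -1.15 to 0.25 for Elovl6 in vehicle against control. They turned within -0.03 to 0.04 for Hmgcs1 and -0.06 to 0.03 for Elovl1 in nintedanib against vehicle. In nintedanib against control the ranges were -0.02 to 0.05 for Sc5d, -0.03 to 0.04 for Srebf2, -0.04 to 0.07 for Insig1, -0.08 to 0.55 for Acaca, -0.98 to 0.43 for Elovl6 and -0.05 to 0.01 for Fads1. Without the 2 farthest mice, r turned to -0.41 (control) and -0.10 (vehicle) for Hmgcs1 with Fasn and to -0.22 (vehicle) and -0.03 (nintedanib) for Fasn with Elovl6. The values of r without control replicate 1 (-0.24 for Hmgcs1 with Fasn) and within 13 vehicle mice (-0.28 for that pair and -0.12 for Fasn with Abca3) were chosen after seeing the data. No paired analysis was possible because the labels give no replicate numbers shared between groups. Of simulated 1.5-fold changes 73.8% to 90.9% were recovered, so smaller changes may have been missed at this depth.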

Other observations

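Other cell markers also differed between the groups. Of 7 airway markers of club and ciliated cells 6 were lower in vehicle than in control, with summed levels of 17500 to 31600 CPM in control and 5250 to 20700 in vehicle. All 6 dividing-cell markers were higher, with 27.1 to 39 CPM in control and 31.9 to 258 in vehicle. Of 8 resident alveolar macrophage markers 5 were higher and 3 lower. In nintedanib against vehicle the 6 dividing-cell markers were not called, with log2 fold changes from -0.73 for Birc5 to -0.64 for Mki67. All 6 were under an unadjusted p of 0.05, with adjusted p from 0.052 to 0.10, and their summed level had a median of 159 CPM in vehicle and 70.3 in nintedanib mice. There 1 gene of the airway list was higher, Bpifa1 (6.09, adjusted p = 0.0028), although only 8 of 17 nintedanib mice lay above the vehicle median. From the resident macrophage list 1 gene was lower, Car4 (-0.45, adjusted p = 0.043), and which cells carried it was not tested.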
